A study of Rattus norvegicus with 22 samples.

Results

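Small nucleolar RNAs were followed in rat liver after ozone inhalation and hepatic vagotomy, through the 63 rows of the count table whose names begin with SNORD, snoU, SNORA or SCARNA, out of 14971 rows in all. By name, 40 rows are box C/D RNAs, 19 are box H/ACA RNAs and 4 are Cajal body RNAs. Liver RNA had been sequenced in 22 rats, each one a library, in 4 groups: 5 vagotomised rats exposed to ozone, 6 vagotomised rats exposed to air, 6 sham-operated rats exposed to ozone and 5 sham-operated rats exposed to air. Vagotomy here is the cutting of the branch of the vagus nerve that runs to the liver. All rats were operated on at 12 weeks of age, had 5 to 6 days of recovery, breathed air or ozone (1 ppm) for 1 or 2 days with 4 hours a day, and were killed within 2 hours of exposure. The labels give neither strain nor sex, nor which rats had 1 day and which had 2 days of exposure, so the length of exposure cannot be told apart from other differences between libraries of a group. The surgery removes one nerve branch and leaves the rest of the vagus nerve as it was, and sham rats had the operation without that cut.

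Small nucleolar RNAs (snoRNAs) are short RNAs of the nucleolus that guide chemical modification of ribosomal RNA as ribosomes are made. Box C/D RNAs bind fibrillarin, Nop56, Nop58 and Snu13 and guide ribose methylation, box H/ACA RNAs bind dyskerin, Nhp2, Nop10 and Gar1 and guide pseudouridylation, and small Cajal body RNAs guide the same changes on the RNAs of the spliceosome. In mammals most of them are not transcribed from genes of their own but are cut out of introns of host genes, many of which code for ribosomal proteins and translation factors.

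Values are normalised counts, the number of reads of a row divided by 1 size factor per library, and they are not corrected for length, so they rank rows by reads and not by molecules. Library totals ran from 14098863 to 21141337 reads, and 3 reads, the limit that a count of 0 allows, equalled 2.30 to 3.66 normalised counts. These limits cover counting error only. The hepatocyte marker Apoa1 had 13211 to 25692 normalised counts across the libraries. A row was tested where its mean over all libraries was at least 10, which held for 24 of the 63 rows, 19 box C/D, 4 box H/ACA and 1 Cajal body row. Of the other 39 rows, 33 had a mean below 5. Changes are log2 fold changes on log2(normalised count + 1) with their standard error (SE), and a row is said to have risen or fallen only where the adjusted p of limma, with Benjamini-Hochberg adjustment over all 12424 genes tested, was under 0.05. As these are bulk livers, fewer cells of a type and less RNA per cell cannot be told apart.

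A set of 4 libraries was the lowest in the row of another short RNA, and the 63 rows are described with and without them. The row of 5.8S ribosomal RNA, itself a short RNA, was at 38.1 in vagotomised ozone library 1, at 179.5 and 89.4 in vagotomised air libraries 1 and 5 and at 72.6 in sham ozone library 3, and no sham air library was this low. In the 18 other libraries the same row ran from 342 to 3775. The 4 libraries were not shallow, with 17026174 to 19469381 reads. They were singled out by a limit of 200 in that row, a choice made after the values had been seen, and not by a snoRNA. The step at this limit, from 179.5 to 342, was no wide gap next to the range of 38.1 to 179.5 within the 4 libraries.

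In these 4 libraries the box C/D rows were nearly absent, while box H/ACA rows were lower by much less. The box C/D sum was 116 in vagotomised ozone library 1, 65.5 and 80.3 in vagotomised air libraries 1 and 5 and 70.0 in sham ozone library 3, against 1005 to 8571 in the 18 others. Their mean box C/D sum was 2.15% of that of the 18 others, their mean box H/ACA sum was 40.6% and their mean Cajal body sum was 20.1%. All 19 tested box C/D rows were lower in each of the 4 libraries than in any of the 18 others, with means of 0.468% for SNORD58 to 7.42% for SNORD39. The median of the 4 libraries was under 10% of the median of the 18 for 19 of 19 box C/D rows and for the Cajal body row SCARNA18, at 5.47% by means, but for 0 of 4 box H/ACA rows, which stood at 19.6% (SNORA7) to 45.9% (SNORA40). Among all 12424 genes tested, 0.322% met the same criterion. The low libraries also resembled each other over all genes tested. Their deviations from the group mean on the log2 scale correlated between groups with r from 0.58 to 0.69. The highest r of any other pair of libraries from different groups was 0.41. Which genes lie behind this was not tested. The difference between the classes was not tested.

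Not every short RNA was low to the same degree. The 5.8S row that defined the split was at 6.58% of its level in the 18 others, 5S ribosomal RNA at 15.2%, U3 at 19.8%, 7SK at 32.1% and U6, a spliceosomal RNA, at 62.8%. Some rows below the minimum of 10 were close to their usual level. SNORD94, which guides methylation of U6 and not of ribosomal RNA, had 6.68, 11.1, 7.03 and 5.25 in the 4 libraries, a mean of 89.7% of that in the 18 others. SNORA17 was at 90.4%, SCARNA6 at 91.9% and SNORA44 at 106%, all 3 on means of 3.09 to 5.48 over all libraries. These 4 rows were picked out after their values were seen, and at such counts each is a handful of reads per library.

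**Figure D1:**
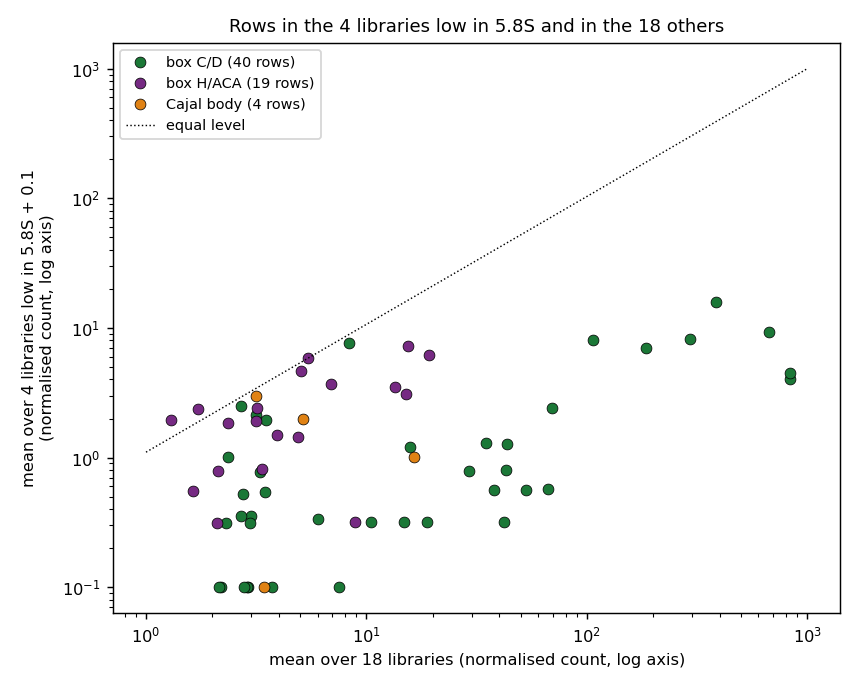
Mean normalised count of each of the 63 rows in the 4 libraries low in 5.8S ribosomal RNA (vertical, plus 0.1, log axis) against the mean in the 18 others (horizontal, log axis). Colours mark the 3 classes and the dotted line marks equal levels. The 19 tested box C/D rows lie far under the line, while several box H/ACA rows lie near it.

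A few box C/D rows held most of the reads. SNORD58, SNORD18, SNORD82, snoU83B, SNORD66 and SNORD57 together made up 51.2 to 63.9% of the box C/D sum in the 4 low libraries and 70.9 to 86.4% in the 18 others (median 81.6%). Mean counts over all 22 libraries ran from 685 for SNORD58 to 1.39 for SNORA70, and 16 of the 63 rows had a read in every library. The row snoU89 is counted with box C/D by its name, although U89 is known as a Cajal body RNA with both kinds of box. SNORD53_SNORD92 is a family name that pools SNORD53 with SNORD92, and other row names may likewise pool copies.

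The box C/D sum was higher in ozone than in air within each surgery once the 4 libraries were set aside. It was 6435, 8571, 4709.7 and 7221 in vagotomised ozone libraries, against 1017, 2973, 1634 and 3677 in vagotomised air libraries. In sham rats it was 5792, 5953, 2734, 6806 and 4857 with ozone, against 1295, 1252, 1005, 1896 and 1669.9 with air. In both surgeries every ozone library lay above every air library. The box H/ACA sum was 135, 157, 129 and 153 in vagotomised ozone libraries, against 69.8, 109, 91.9 and 122 in vagotomised air libraries. It was 194, 193, 127, 171 and 94.4 in sham ozone libraries, against 82.97, 81.3, 71.5, 79.1 and 85.2 in sham air libraries. Here too the groups did not overlap, over a narrower range. The Cajal body sum ran from 28.7 to 43.0 in vagotomised ozone and from 20.6 to 27.6 in vagotomised air libraries, and 28.3 to 49.0 in sham ozone against 11.1 to 20.5 in sham air libraries. No test was made of these sums.

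**Figure D2:**
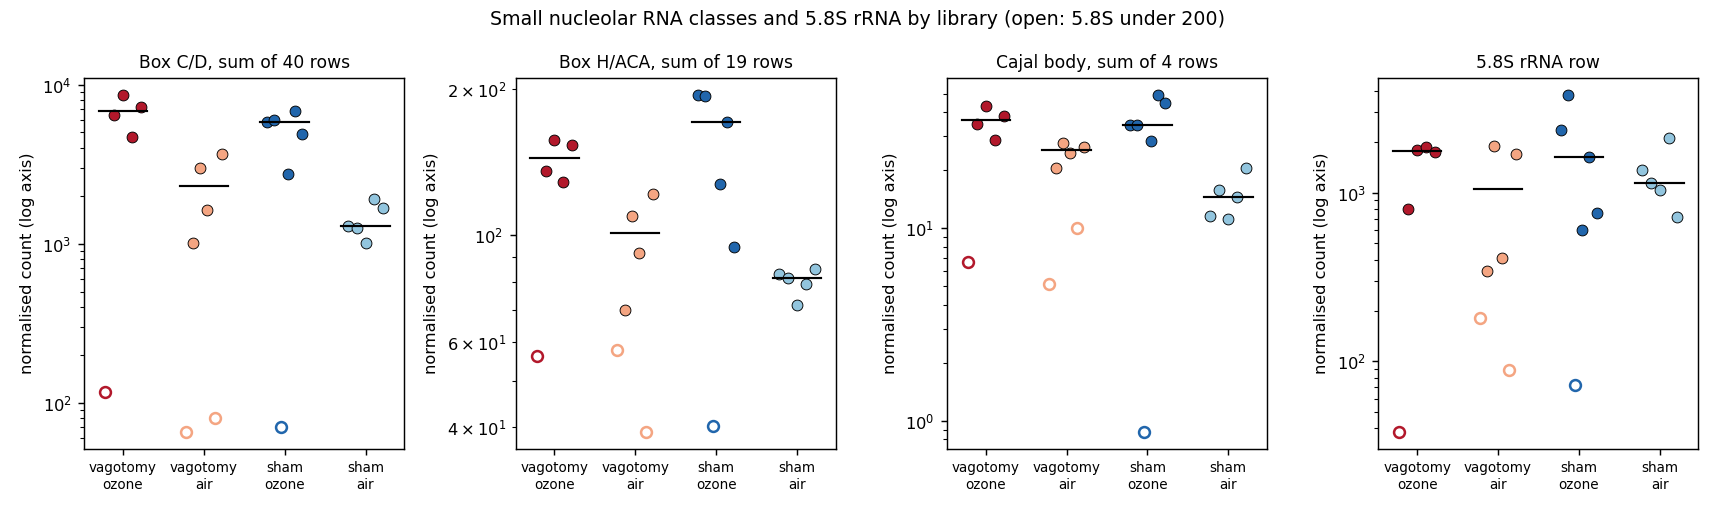
Sum of normalised counts of the box C/D, box H/ACA and Cajal body rows and the 5.8S ribosomal RNA row, one point per library on log axes with different ranges. Open points are the 4 libraries under 200 in the 5.8S row and bars are medians of the filled points. Filled ozone points lie above filled air points of the same surgery in each class, while those of the 5.8S row overlap.

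The 5.8S row did not separate the groups in this way. It was 802, 1782, 1854 and 1748 in vagotomised ozone libraries, against 342, 1877, 411 and 1687 in vagotomised air libraries. In sham rats it was 2351, 3775, 596, 1619 and 754 with ozone, against 1365, 1146, 1041, 2109.7 and 713 with air. The groups overlapped, with changes of 0.84 ± 0.56 (SE, adjusted p = 0.311) in vagotomised and 0.28 ± 0.50 (SE, adjusted p = 0.695) in sham rats by limma. The box C/D sum per 5.8S count was 2.54 to 8.03 in vagotomised ozone and 1.58 to 3.97 in vagotomised air libraries, and 1.58 to 6.44 in sham ozone and 0.899 to 2.34 in sham air libraries. Both pairs of ranges overlap, with medians of 4.47 in vagotomised ozone and 2.57 in vagotomised air libraries, and 4.20 in sham ozone and 0.966 in sham air libraries. The ratio was not tested. Of the other short RNA rows tested, 5S, 7SK, U6 and Metazoa_SRP passed the test in neither surgery. With 5.8S and U3 they make 6 tested short RNA rows outside the 63. Over the 18 libraries the median change of these 6 was 0.60 in vagotomised and 0.34 in sham rats. The median over all genes was -0.003 in both. Whether short RNAs shifted together was not tested. U3, a box C/D RNA outside the naming rule, rose by 1.16 ± 0.33 (SE, adjusted p = 0.0157) in vagotomised rats and had a change of 0.68 ± 0.30 (SE, adjusted p = 0.0829) in sham rats.

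With all 22 libraries, 0 of the 24 rows passed the test for ozone against air in vagotomised rats, where 21.1% of all genes tested were called, and 0 of 24 in sham rats, where 28.4% were called. At an unadjusted p under 0.05 there were 2 in vagotomised rats and 0 in sham rats, against 32.4% and 39.0% of all genes. All 24 changes were positive in vagotomised rats, with a median of 1.75 against -0.01 over all genes, and 21 of 24 were positive in sham rats, with a median of 0.66 against 0.01. The lowest adjusted p was 0.122 in vagotomised rats, for SNORD56, and 0.264 in sham rats, for SNORA7. The standard errors of the 22-library fit were large, 1.61 for SNORD58 against 0.44 and 0.39 in the 2 surgeries without the 4 low libraries.

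Without the 4 low libraries, 19 of the 24 rows rose with ozone in vagotomised rats, where 12.3% of all genes rose, and 15 of 24 rose in sham rats, where 19.1% of all genes rose. None fell in either surgery, where 22.6% of all genes in vagotomised and 35.8% in sham rats were called in either direction. At an unadjusted p under 0.05 there were 20 and 18 rows, against 34.1% and 45.1% of all genes. In vagotomised rats the 19 were all 19 box C/D rows, with 0 of 4 box H/ACA rows and the Cajal body row not called. In sham rats they were 12 of 19 box C/D rows, 2 of 4 box H/ACA rows and the Cajal body row. The median change of the 24 rows was 1.52 in vagotomised and 1.22 in sham rats, with 0.00 over all genes in both. Every ozone library lay above every air library for 16 of the 24 rows in vagotomised rats, against 14.9% of all genes, and for 9 of 24 in sham rats, against 11.8%. With all 22 libraries this held for 0 rows in both surgeries, against 6.54% and 8.15% of all genes. These calls rest on leaving out libraries by a value that is low together with the rows. The minimum of 10 was taken over all 22 libraries. There SCARNA18, SNORA7, SNORD45 and SNORD81 had means above 10 in both ozone groups and below 10 in both air groups. These rows passed the minimum through the ozone groups, so their calls are no separate support.

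With log2 of the 5.8S row as a covariate, 14 of 24 rows were called in vagotomised rats and 17 in sham rats among the 18 libraries, where 20.4% and 35.8% of all genes were called in the same fits. Among all 22 libraries the covariate gave 13 rows in vagotomised rats, against 24.8% of all genes, and 7 in sham rats, a share of the 24 that is not above the 34.0% of all genes. What the 5.8S level contributes to the result beyond this was not tested. The count of 19 in vagotomised rats was lower when certain single libraries were left out. It was 11 without vagotomised air library 2, vagotomised air library 4 or vagotomised ozone library 3, and 12 without vagotomised ozone library 5. In sham rats the count stayed between 13 and 19. Vagotomised air libraries 2 and 4 had the lowest 5.8S counts of the 18, 342 and 411. Vagotomised ozone library 3 had 1782. The share of all genes called in these fits with a library left out is not given here.

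**Figure D3:**
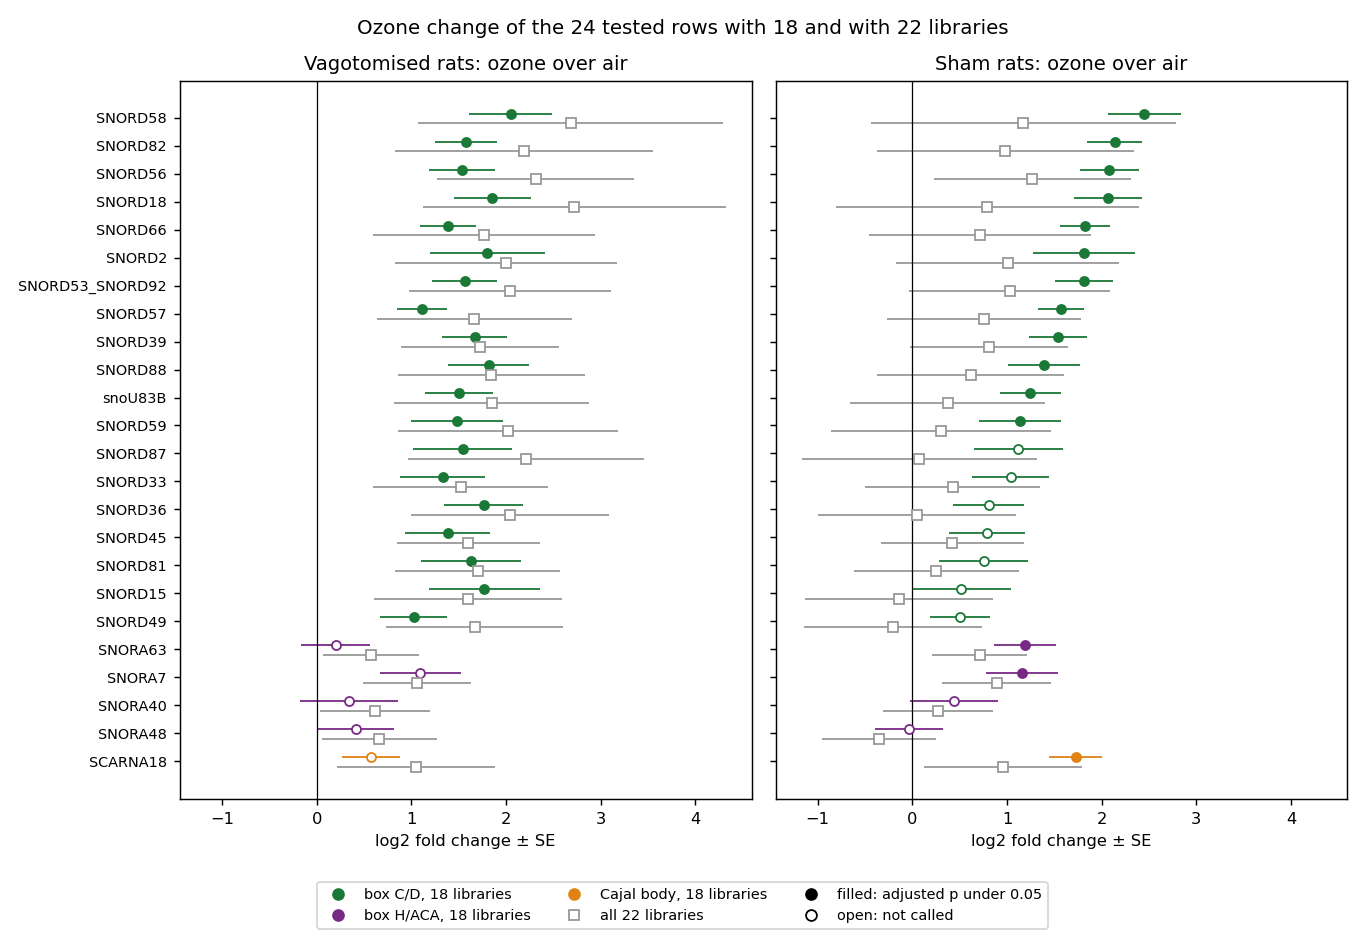
Log2 fold change with ozone over air (± SE) of the 24 tested rows, vagotomised rats on the left and sham rats on the right. Circles are fits to the 18 libraries and grey squares fits to all 22, and filled symbols had an adjusted p under 0.05. Every square is open and has a wide bar, while 19 circles on the left and 15 on the right are filled.

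SNORD58, which in human and mouse comes from an intron of the ribosomal protein gene RPL17 and guides methylation of the large-subunit ribosomal RNA, had the highest mean count over all 22 libraries and, over the 18 libraries without the low ones, the largest ozone change of the 24 rows in both surgeries. In the 22-library fit, where no row passed, SNORD18 had a larger change in vagotomised rats (2.72 against 2.68 for SNORD58) and SNORD56 in sham rats (1.27 against 1.17). It had 1651, 2068, 809 and 1791 in vagotomised ozone libraries, against 131, 547, 285 and 816 in vagotomised air libraries. The value of 809 lay just under the highest air library, 816, so the groups touched. The change was 2.05 ± 0.44 (SE, adjusted p = 0.00199). Sham rats had 1094, 1509.8, 601, 1609 and 1072 with ozone, against 194, 153, 134, 291 and 297 with air, a change of 2.45 ± 0.39 (SE, adjusted p = 6.86e-05). There every ozone library was above every air library. The low libraries had 5.72 (vagotomised ozone), 2.55 and 3.01 (vagotomised air) and 4.38 (sham ozone).

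SNORD18, from introns of RPL4 in human and also a guide for the large subunit, followed closely. It had 1423, 1858, 1054 and 1569 in vagotomised ozone libraries, against 173, 619, 281 and 837 in vagotomised air libraries, a change of 1.86 ± 0.41 (SE, adjusted p = 0.00252). Sham livers gave 1473, 1451, 448, 1525 and 964 with ozone, against 203, 223, 222, 399 and 269.9 with air, a change of 2.07 ± 0.36 (SE, adjusted p = 0.000193). The groups did not overlap in either surgery.

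SNORD82, which lies in an intron of the nucleolin gene in human, had the lowest p of the 24 rows in sham rats over the 18 libraries. It had 1122, 1653, 812 and 1358 in vagotomised ozone libraries, against 238, 472, 385 and 585 in vagotomised air libraries, a change of 1.58 ± 0.33 (SE, adjusted p = 0.00153). Among sham rats the counts were 776, 841, 666, 1068 and 1024 with ozone, against 203, 107, 123, 322 and 330.5 with air, a change of 2.14 ± 0.29 (SE, adjusted p = 1.4e-05). Both pairs of groups stood apart. The levels of the low libraries were 15.3 in vagotomised ozone, 9.36 and 6.02 in vagotomised air and 6.13 in sham ozone.

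snoU83B, a box C/D RNA of the ribosomal protein gene Rpl3, differed from these 3 in sham rats, where the groups overlapped. It had 507, 691, 613 and 594 in vagotomised ozone libraries, against 97.3, 328, 151 and 403 in vagotomised air libraries (1.50 ± 0.36, SE, adjusted p = 0.00496). In sham rats it had 672, 603, 219, 629 and 406 with ozone, against 154, 243, 164, 243 and 198 with air (1.25 ± 0.32, SE, adjusted p = 0.00505). Sham ozone library 4, with 219, lay among the air libraries.

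SNORD66 and SNORD57, both guides for the small-subunit ribosomal RNA in human, completed the 6 most abundant rows. SNORD66 had 497, 651, 349 and 498 in vagotomised ozone libraries, against 102, 245, 184 and 256 in vagotomised air libraries, and 424, 254, 264, 594 and 432 in sham ozone libraries, against 87.4, 94.2, 80.8, 119 and 160.1 in sham air libraries. SNORD57 had 358, 365.64, 204 and 251 in vagotomised ozone libraries, against 90.4, 156, 113 and 188 in vagotomised air libraries, and 269.9, 175, 164, 319 and 291 in sham ozone libraries, against 77.6, 68.4, 53.0, 101 and 105 in sham air libraries. For both rows every ozone library exceeded every air library of the same surgery. SNORD66 rose by 1.39 ± 0.29 (SE, adjusted p = 0.00186) in vagotomised rats and by 1.82 ± 0.26 (SE, adjusted p = 2.41e-05) in sham rats. SNORD57 rose by 1.11 ± 0.27 (SE, adjusted p = 0.00492) and by 1.57 ± 0.24 (SE, adjusted p = 4.28e-05).

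**Figure D4:**
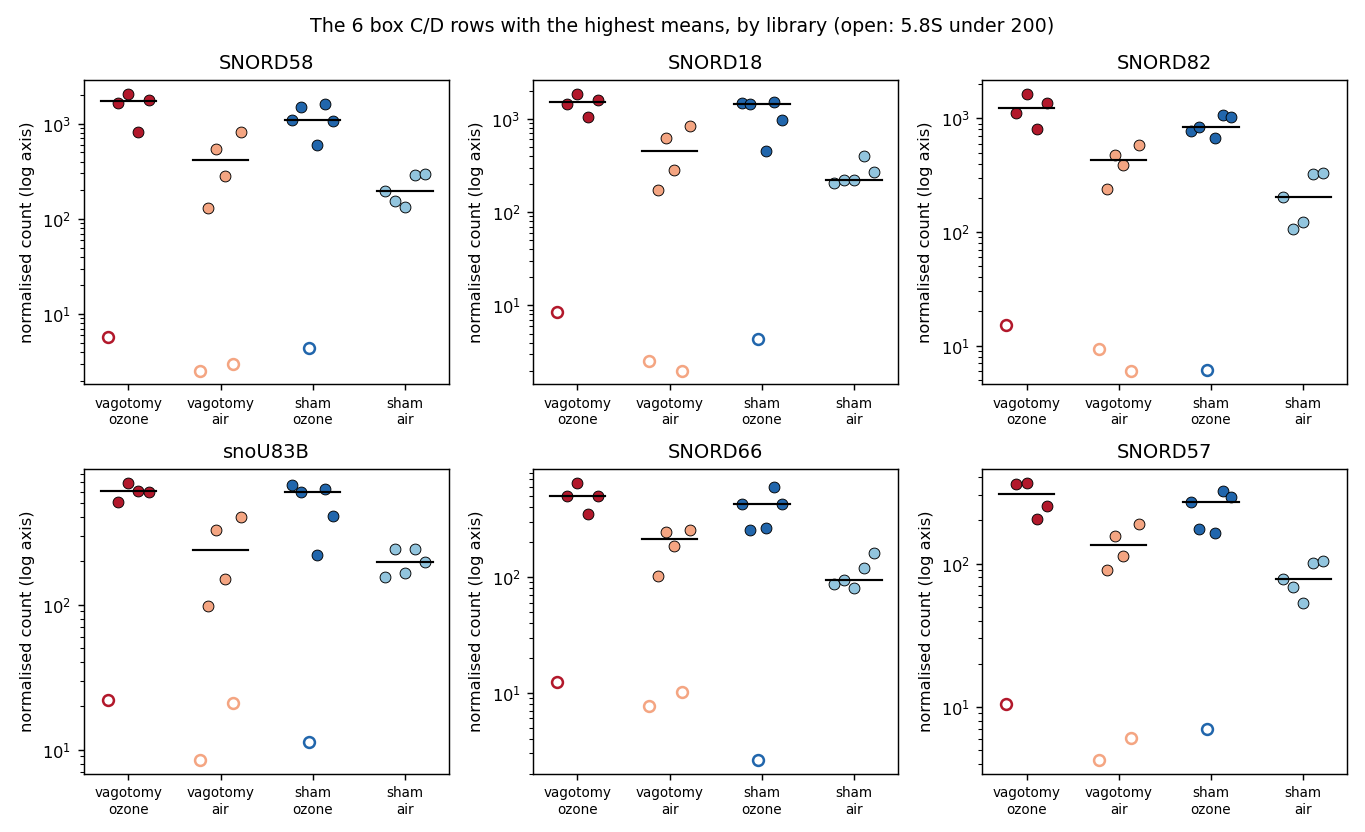
Normalised counts of the 6 box C/D rows with the highest means, one point per library on a log axis. Open points are the 4 libraries low in 5.8S ribosomal RNA and bars are medians of the filled points. Filled ozone points lie above filled air points except for 1 point each of SNORD58 in vagotomised rats and snoU83B in sham rats.

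All box C/D rows with fewer reads that were tested rose in vagotomised rats, and some of them rose in sham rats. SNORD56, from another intron of Nop56 in human, averaged 82.3 ± 31.2 in vagotomised ozone (SD, n = 4) and 26.2 ± 6.97 in vagotomised air libraries (SD, n = 4), and 55.8 ± 16.04 in sham ozone and 12.998 ± 5.397 in sham air libraries (SD, n = 5 each). It rose by 1.54 ± 0.35 (SE) in vagotomised and 2.08 ± 0.31 (SE) in sham rats. SNORD39 averaged 189 ± 44.2 in vagotomised ozone and 65.9 ± 37.6 in vagotomised air libraries, and 136 ± 53.0 in sham ozone and 44.0 ± 6.999 in sham air libraries, and SNORD88 and SNORD53_SNORD92 also rose in both surgeries. The changes of SNORD88 were 1.82 ± 0.43 (SE) in vagotomised and 1.39 ± 0.38 (SE) in sham rats, and those of SNORD53_SNORD92 were 1.56 ± 0.34 (SE) and 1.81 ± 0.30 (SE).

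SNORD36 and SNORD81 rose in vagotomised rats and did not pass in sham rats. SNORD36, from introns of RPL7A in human, had 59.5, 114, 58.4 and 84.9 in vagotomised ozone libraries, against 9.16, 43.8, 13.8 and 38.3 in vagotomised air libraries, a change of 1.77 ± 0.42 (SE, adjusted p = 0.00444). Sham livers had 47.6, 58.5, 20.2, 53.4 and 48.4 with ozone, against 32.1, 14.9, 19.5, 26.1 and 33.9 with air, a change of 0.80 ± 0.37 (SE, adjusted p = 0.10). The difference between the surgeries, 0.96 ± 0.56, did not pass (adjusted p = 0.5004). The log2 differences of SNORD81 were 1.63 ± 0.53 (SE, adjusted p = 0.0298) in vagotomised and 0.75 ± 0.47 (SE, adjusted p = 0.226) in sham rats. Its call in vagotomised rats ended when vagotomised ozone library 3, 4 or 5 or vagotomised air library 2 or 4 was left out, with an adjusted p of up to 0.102 by limma. The log2 differences of the other 7 tested box C/D rows were 1.03 to 1.80 in vagotomised rats, all called, and 0.50 to 1.81 in sham rats, where 2 were called.

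The box H/ACA rows had far fewer reads than the 6 most abundant box C/D rows, and their changes were not tested against those of box C/D. SNORA63, a guide for the large subunit, had 22.1, 21.0, 16.8 and 17.7 in vagotomised ozone libraries, against 12.6, 13.3, 20.7 and 21.9 in vagotomised air libraries, a change of 0.20 ± 0.37 (SE, adjusted p = 0.751). The sham counts were 33.0, 13.3, 47.5, 39.2 and 12.98 with ozone, against 6.25, 9.91, 13.01, 12.5 and 13.3 with air, and rose by 1.19 ± 0.33 (SE, adjusted p = 0.00782). Of the 5 sham ozone libraries, 2 lay within the air range and 3 lay above it. SNORA7 differed by 1.09 ± 0.43 (SE, adjusted p = 0.0727) in vagotomised rats and rose by 1.16 ± 0.38 (SE, adjusted p = 0.0233) in sham rats. The sham call ended without sham ozone library 1 or 2 or sham air library 3, with an adjusted p of up to 0.0717 by limma. SNORA7 averaged 22.004 ± 5.98 in vagotomised ozone and 10.7 ± 5.20 in vagotomised air libraries (SD, n = 4 each), and 20.6 ± 11.3 in sham ozone and 7.83 ± 2.21 in sham air libraries (SD, n = 5 each). SNORA40 and SNORA48 did not pass in either surgery. The changes of SNORA40 were 0.34 ± 0.52 (SE) in vagotomised and 0.44 ± 0.47 (SE) in sham rats, and those of SNORA48 were 0.41 ± 0.40 (SE) and -0.04 ± 0.36 (SE). SNORA16, with the fifth highest mean of its class, was under the minimum at 7.26, and had 13.3 ± 4.79 in vagotomised ozone and 7.77 ± 5.42 in vagotomised air libraries (SD, n = 4 each).

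Of the Cajal body rows, SCARNA18 was the only one above the minimum. It had 19.2, 26.2, 20.8 and 20.5 in vagotomised ozone libraries, against 12.6, 14.3, 14.6 and 15.3 in vagotomised air libraries, a change of 0.57 ± 0.31 (SE, adjusted p = 0.201). Among sham rats it had 20.8, 24.3, 14.2, 29.4 and 30.7 with ozone, against 7.14, 6.94, 2.79, 5.79 and 11.3 with air, and rose by 1.72 ± 0.28 (SE, adjusted p = 7.39e-05). Each pair of groups was apart, and the sham air libraries were the lowest of the 4 groups. SCARNA17 averaged 4.84 ± 3.05 in vagotomised ozone and 6.00 ± 1.06 in vagotomised air libraries (SD, n = 4 each), and 6.96 ± 2.15 in sham ozone and 2.93 ± 1.35 in sham air libraries (SD, n = 5 each). SCARNA6 and SCARNA7 ran from 0 to 7.62 and from 0.892 to 6.29 over the 18 libraries, about the level of the counting limit.

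With the minimum lifted, 21 of the 63 rows rose with ozone in vagotomised rats, against 10.1% of all genes, and 23 of 63 in sham rats, against 16.2%. None fell. They comprised 20 box C/D, 0 box H/ACA and 1 Cajal body row in vagotomised rats, and 15 box C/D, 6 box H/ACA and 2 Cajal body rows in sham rats. Of the 63 changes, 56 were positive in vagotomised rats and 58 in sham rats.

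Vagotomy against sham surgery moved no row past the threshold in either exposure. In air, 0 of 24 rows were called with all 22 libraries and 0 without the 4 low ones, where 0.00% of all genes were called. At an unadjusted p under 0.05 there were 0 rows with 22 libraries and 6 with 18, against 3.11% and 6.05% of all genes. Those with the smallest p without the low libraries were SCARNA18 (14.2 ± 1.16 in vagotomised and 6.79 ± 3.06 in sham air libraries, SD, n = 4 and 5, change 1.06 ± 0.29, adjusted p = 0.622) and SNORD82 (420.1 ± 146 and 217 ± 106, change 1.03 ± 0.31, adjusted p = 0.692). SNORD56 and SNORD66 followed, with changes of 1.03 ± 0.33 and 0.81 ± 0.28. With all 22 libraries the median change of the 24 rows in air was -1.02, with 2 of the 6 vagotomised air libraries and no sham air library among the low ones, and without these it was 0.27.

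In ozone, 0 of 24 rows were called for vagotomy against sham, with 1.34% of all genes called over 22 libraries and 2.19% over 18. At an unadjusted p under 0.05 there were 0 rows in both, against 1862 and 2314 of all 12424 genes. The row with the smallest p was SNORD36 without the low libraries, with 79.3 ± 26.3 in vagotomised and 45.6 ± 14.9 in sham ozone libraries (SD, n = 4 and 5), a change of 0.81 ± 0.40 (SE, adjusted p = 0.275). SNORD49, SNORA40 and SNORD39 came next, at 0.57 ± 0.34, 0.80 ± 0.49 and 0.53 ± 0.32.

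The ozone change did not differ between surgeries past the threshold for any of the 24 rows, with 0.00% of all genes called. At an unadjusted p under 0.05 there was 1 row without the low libraries, SCARNA18, whose ozone change was smaller in vagotomised than in sham rats by -1.15 ± 0.41 (SE, adjusted p = 0.287), and 0 rows with all 22, against 12.1% and 9.23% of all genes. SNORA63, SNORD36 and SNORD15 had the next smallest p, with differences of -0.99 ± 0.49, 0.96 ± 0.56 and 1.26 ± 0.79. That all 19 box C/D rows were called in vagotomised rats and 12 in sham rats is therefore no measured difference between the surgeries.

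Host genes were compared with the rows they carry. RefSeq symbols of the GRCr8 assembly matched 39 of the 63 rows by family name, and 12 tested rows could be placed within the span of 13 tested genes. The strand is not given in that table, the match may be to 1 copy of several, and only names were taken from it. Without the low libraries, 11 of these 12 rows rose in vagotomised rats and 3 of the 13 genes did, with a median host change of 0.05 and 12.3% of all genes risen. In sham rats 8 of 12 rows and 5 of 13 genes rose, with a median host change of 0.18 and 19.1% of all genes risen. None of the 13 genes fell. With all 22 libraries 0 of the 12 rows were called in either surgery, and again 3 and 5 of the 13 genes rose, against 11.4% and 14.6% of all genes. A read from an unspliced host intron and one from the mature snoRNA cannot be told apart in these counts, and how reads on overlapping genes were assigned is not given in the sources used here.

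All of the 6 rows with the most reads rose in both surgeries over the 18 libraries, and for 3 of them the host did not pass. SNORD18 and SNORD82 had no host among the 13 genes. The changes of Rpl4 and Ncl, their hosts in human, are not given here. The log2 difference of SNORD58 was 2.05 in vagotomised and 2.45 in sham rats, and that of Rpl17 was -0.39 ± 0.21 (SE, adjusted p = 0.211) and -0.14 ± 0.19 (SE, adjusted p = 0.600). For snoU83B it was 1.50 and 1.25, and for Rpl3 0.24 ± 0.09 (SE, adjusted p = 0.0601) and 0.18 ± 0.08 (SE, adjusted p = 0.0854). For SNORD66 it was 1.39 and 1.82, and for Eif4g1, a scaffold of the translation initiation complex, -0.46 ± 0.24 (SE, adjusted p = 0.187) and 0.06 ± 0.22 (SE, adjusted p = 0.848). The Rpl17 row was low for a ribosomal protein gene, with 45.1 to 305 normalised counts over all libraries. Its median was 79.2, against 2342 for Rpl3. For other rows the host rose as well, and the difference between a row and its host was not tested. Nop56, the host of SNORD57 and itself a protein of box C/D particles, rose by 0.62 ± 0.17 (SE, adjusted p = 0.0116) in vagotomised and 0.85 ± 0.15 (SE, adjusted p = 0.000204) in sham rats. Wdr43, a protein of small-subunit assembly whose span holds SNORD53_SNORD92, rose by 0.77 ± 0.14 (SE, adjusted p = 0.000495) and 1.39 ± 0.13 (SE, adjusted p = 1.4e-07). The largest host changes were those of Fv1, whose span holds SNORD88, which rose by 1.16 ± 0.27 (SE, adjusted p = 0.00388) in vagotomised and 1.88 ± 0.24 (SE, adjusted p = 7.02e-06) in sham rats.

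**Figure D5:**
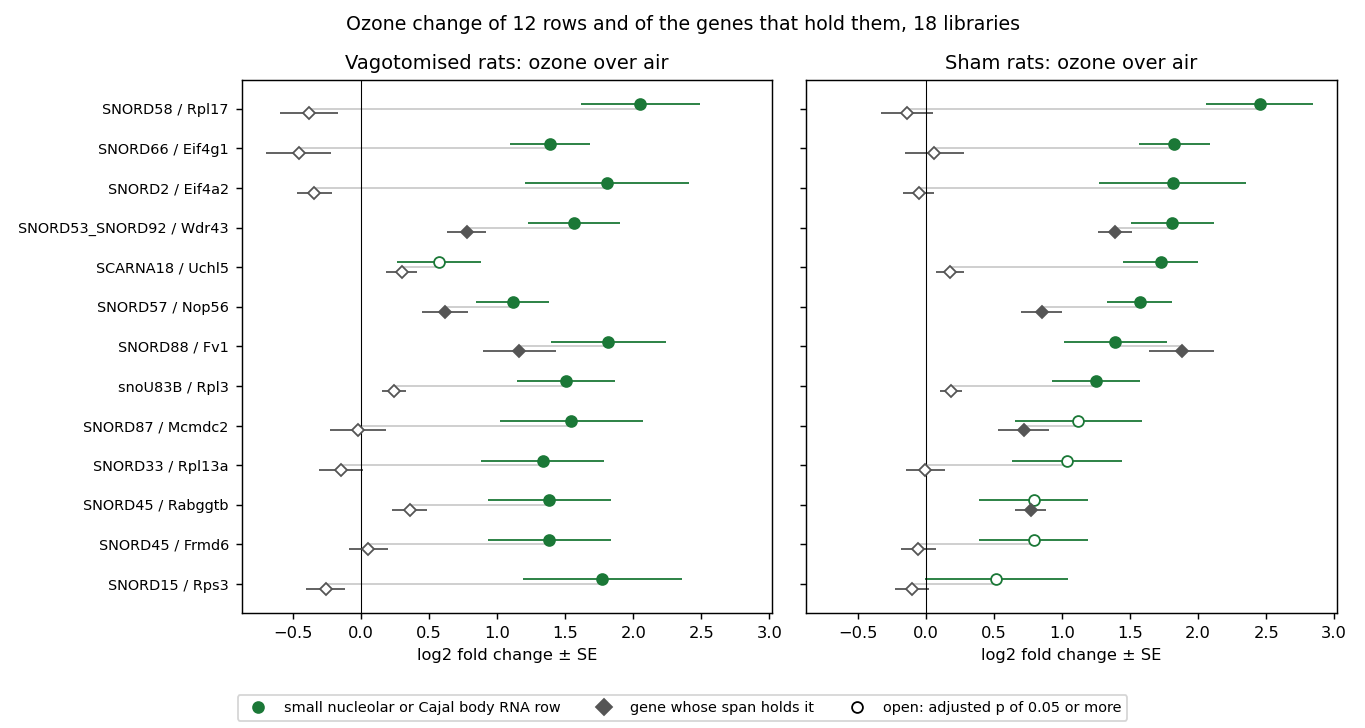
Log2 fold change with ozone over air (± SE) of 12 rows (circles) and of the 13 genes whose span holds them (diamonds), fitted to the 18 libraries, vagotomised rats on the left and sham rats on the right. Filled symbols had an adjusted p under 0.05. Most diamonds sit near 0 while the circles lie between 0.52 and 2.45.

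Many snoRNA host genes are known for a terminal oligopyrimidine start, at which transcription begins on a C within a run of C and T. The starts of the hosts of the 6 most abundant rows are shown for that reason, from 20 bases before to 10 bases from the RefSeq start in GRCr8, 5′ to 3′ on the gene's strand, with capitals marking a run of at least 5 letters that are all C or T and lies within 5 bases of the start. SNORD18 and SNORD82 were assigned to Rpl4 and Ncl from their hosts in human, the others from the RefSeq spans.
Rpl17: cccagtagccttcgcgCTTCCTCTTCCTgt
Rpl4: agtgataagTTCTTCCTTTTCCTgtgggag
Ncl: gcctcagacgctagctgtagctggcaggcg
Rpl3: ctgcaccagcgcctgctcgaTCTCTatcgg
Eif4g1: cccagcgccagcgcagctccgCCCTCTgcg
Nop56: ggcgtggcctccgcagtctggttccgcgcg
They lie at chr18:70856256-70856285 (+), chr8:73566457-73566486 (+), chr9:94456074-94456103 (-), chr7:113507981-113508010 (-), chr11:93746358-93746387 (-) and chr3:137930159-137930188 (+), in the order above. A run was found in 4 of these 6 starts, in 42.9% of 14 host genes with an entry, and in 29.3% of all 33469 starts in the table. The 14 host genes include these 6. At the start base itself only Rpl17 and Rpl4 had a C within the run. Rpl3 had a T there, and Eif4g1 had a G, with its run after the start. Rpl17 and Rpl4 had the longest runs, of 12 and 14 bases. A run is a match of letters and not a measured start, and the 2 starts without one, Ncl and Nop56, lack only a run in this window.

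Genes for the proteins of these particles moved in both directions. Of 14 tested genes for box C/D proteins and assembly factors, 3 rose and 2 fell with ozone in vagotomised rats, and 5 rose and 2 fell in sham rats, without the low libraries, where 22.6% and 35.8% of all genes were called in either direction and 12.3% and 19.1% rose. Nolc1, a chaperone that shuttles between nucleolus and Cajal bodies, rose by 0.76 ± 0.10 (SE, adjusted p = 1.84e-05) in vagotomised and 0.75 ± 0.09 (SE, adjusted p = 1.99e-06) in sham rats. Rrp9, a protein of the U3 particle, rose by 0.69 ± 0.23 (SE) and 0.80 ± 0.21 (SE). Rpap3, part of the R2TP assembly chaperone, fell by 0.40 ± 0.10 (SE) and 0.31 ± 0.09 (SE) on the log2 scale, and Ruvbl1 of the same complex fell by 0.42 ± 0.13 (SE) in vagotomised and 0.34 ± 0.11 (SE) in sham rats. The median over the list was 0.07 in vagotomised and 0.00 in sham rats, next to 0.00 over all genes in both.

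Of 10 tested genes for box H/ACA and Cajal body proteins, 0 passed in vagotomised rats and 4 rose in sham rats, where 12.3% and 19.1% of all genes rose. In sham rats Naf1, an assembly factor, rose by 0.60 ± 0.18 (SE, adjusted p = 0.0118) and Dkc1, the pseudouridine synthase dyskerin, by 0.37 ± 0.12 (SE, adjusted p = 0.0209), and in vagotomised rats the value of Naf1 was 0.54 ± 0.20 (SE, adjusted p = 0.0568). Nhp2 rose by 2.91 ± 0.88 in sham rats on counts of 0 to 36.4 per library. Papd5, a poly(A) polymerase that acts on ends of these RNAs, rose by 0.27 ± 0.09 in sham rats. The median was 0.14 in vagotomised and 0.18 in sham rats.

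Of 41 tested genes known as snoRNA hosts in human or mouse, 4 rose and 2 fell in vagotomised rats, where 12.3% of all genes rose, and 11 rose and 1 fell in sham rats, where 19.1% rose. Beside Wdr43 and Nop56, Eif4a1, the helicase of translation initiation, rose by 0.53 ± 0.09 (SE) in vagotomised and 0.53 ± 0.08 (SE) in sham rats. Hspa9 rose by 0.29 ± 0.08 in vagotomised rats, and Nfya fell by 1.16 ± 0.17 on the log2 scale in sham rats. The list's median was -0.02 in vagotomised and 0.03 in sham rats. With all 22 libraries 3 box C/D protein genes rose and 1 fell in vagotomised rats and 5 rose and 1 fell in sham rats, 0 and 3 box H/ACA protein genes rose, and 5 host genes rose and 3 fell in vagotomised rats and 8 rose and 1 fell in sham rats, where 11.4% of all genes rose in vagotomised and 14.6% in sham rats.

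Markers of cell types were read beside these rows, without the low libraries. In vagotomised rats 0 of 6 hepatocyte, 0 of 6 Kupffer cell and 1 of 4 endothelial markers rose (Lyve1, 0.64 ± 0.15), 1 of 5 stellate markers fell (Lrat, -0.60 ± 0.20), and 0 of 3 cholangiocyte, 0 of 2 lymphocyte and neutrophil and 0 of 2 erythroid markers passed. In sham rats Hnf4a rose (0.68 ± 0.10) among hepatocyte markers, Cd5l and Cd68 fell (-0.58 ± 0.18 and -0.88 ± 0.16) among Kupffer cell markers, Dcn rose (1.50 ± 0.28) among stellate markers, and 0 passed in the other 4 lists. The other 4 stellate markers had uncalled values below 0, from -1.04 to -0.16, and the median of the 5 was -0.35. Their part in the changes of the snoRNA rows was not tested.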

How the data were processed

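The values the authors deposited are signals, namely reads of each row scaled with 1 factor for each library (normalised counts). The submitters' processing notes name STAR, Partek, DESeq, DESeq2 and the rat build rn6, with no roles or versions. Libraries were made from total RNA of 10 to 20 mg of liver with the PrepX RNA-Seq kit, per the labels' protocols. Dividing a column by its smallest step returned whole numbers, to within 0.001, for 100% of its values, and these are used as reads.

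Rows were classed by name. limma 3.58.1 in R 4.3.3 fitted 4 group means with an intensity trend to log2(normalised count + 1) over genes with a mean of at least 10 (12424 of 14971, 83.0%), two-sided, with Benjamini-Hochberg adjustment over all genes tested. Each fit was made over all 22 libraries and over the 18 with at least 200 in 5_8S_rRNA. The tested rows stayed the same. Alternatives were pseudocounts of 0.5 and 5, no minimum or a minimum of 50, equal column totals or upper quartiles, a replicate block, only the groups compared, log2 5_8S_rRNA as a covariate, each library left out, and, on the recovered reads, edgeR 4.0.16 (quasi-likelihood) and DESeq2 1.42.0. Those run over the 18 libraries were added after the data had been seen.

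The members and lists were chosen with earlier results of these data known. Named were the 6 box C/D and 5 box H/ACA rows with the highest means, all Cajal body rows, and per comparison up to 12 called rows or, with none called, the 4 with the smallest p. Rows named beyond that were chosen after their values were seen. From each protein and host list, up to 4 called genes with the smallest p could be named. Each library is 1 rat per the labels, and 50 pairs within groups showed no copies (lowest chi-square per degree of freedom 9.29). The procedure was tested on simulated data. Plots used matplotlib 3.10.9 under Python 3.11.15.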

Additional observations from a re-analysis of the deposited data

Results flagged for a closer look

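In groups of 4 to 10 libraries, a highest or lowest library whose gap to its neighbour took up an unusually large share of the group's range (Dixon's ratio on log2(normalised count + 1), 95% critical values) was listed for the 3 class sums, the 5.8S row and the named rows. Of 60 groups examined 24 were listed, where chance lists about 1 in 20 of independent groups. The 60 are not independent, as they hold the same libraries and the leading rows also enter the class sums. In 22 of the 24 the library was one of 2, vagotomised ozone library 1 or sham ozone library 3, always the lowest. Both are among the 4 libraries low in 5.8S.

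Vagotomised ozone library 1 was lowest for the box C/D sum (ratio 0.86), the box H/ACA sum (0.805), the Cajal body sum (0.776), the 5.8S row (0.783), SNORD58 (0.836), SNORD18 (0.892), SNORD82 (0.846), snoU83B (0.909), SNORD66 (0.84), SNORD57 (0.832), SNORA7 (0.731), SNORA48 (0.757) and SCARNA18 (0.867). Sham ozone library 3 was lowest for the box C/D sum (0.8), the Cajal body sum (0.837), SNORD58 (0.828), SNORD18 (0.783), SNORD82 (0.906), snoU83B (0.721), SNORD66 (0.834), SNORD57 (0.82) and SCARNA18 (0.787). Vagotomised air libraries 1 and 5, the other low ones, were listed once each, for SNORA48 (0.738) and SNORA40 (0.887).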

How the results depend on the processing

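With all 22 libraries the counts of called rows were 0 for ozone against air in both surgeries. In vagotomised rats the count became 19 without the 4 low libraries and 13 with log2 5_8S_rRNA as a covariate, and ran from 0 to 15 with single libraries left out, the highest without vagotomised ozone library 1. In sham rats it became 15 without the low libraries, 7 with the covariate and 2 with no minimum, and ran from 0 to 1 with single libraries left out. Without the low libraries the 19 calls in vagotomised rats became 9 of 9 tested at a minimum of 50 and 12 with the replicate block, and ran from 11 to 19 with single libraries left out. The 15 in sham rats became 8 of 9 tested at a minimum of 50 and 23 with no minimum, and ran from 13 to 19. DESeq2 gave 17 and 19 calls, edgeR with TMM 18 and 17. In the main fits 21.1% and 28.4% of all genes were called over 22 libraries, and 22.6% and 35.8% over 18, in vagotomised and sham rats. Shares are not given here for DESeq2, edgeR, the changed minimums, the replicate block or single libraries left out. Those counts are therefore not set against a background. Counts for vagotomy and for the difference were 0 under every alternative run. SNORA48 in sham rats, uncalled, turned to 0.000214 with the replicate block, 0.0130 with edgeR and the deposited size factors and 0.00846 with DESeq2, and ran from -0.23 to 0.27 with single libraries left out. Equal column totals moved the median of all genes by -0.11 in sham rats. Same-numbered libraries did not vary together (31 pairs, r from -0.49 to 0.61, median 0.03), so the numbers do not pair rats. Depth limits the 33 rows with means under 5, where a few reads decide a value.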
